A study of Mus musculus with 10 samples.

Results

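Genes of cell cycle entry were followed in thymocytes of the CD4 and CD8 double-positive (DP) stage, sorted from mice without the E proteins E2A, HEB or both. The set held the D cyclin genes Ccnd1, Ccnd2 and Ccnd3, the kinase genes Cdk4 and Cdk6, the inhibitor genes Cdkn1a, Cdkn1b, Cdkn2c and Cdkn2d, and the pocket protein gene Rb1. Genes were listed by symbol, and each was read from the probe set annotated with that symbol alone, or from the one with the highest mean over all arrays where there were several. Of the 10 genes listed, 9 had such a probe set, and these 9 were among the 13138 genes tested of 19937 named on the array. Cdkn1a, which encodes p21, shares its annotated probe set with another gene symbol, and no value is given for it.

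RNA came from DP cells of individual mice, 8 weeks old, sorted to a purity above 98%, on 10 Affymetrix arrays. Every group carried Cd4-cre, a transgene that expresses Cre recombinase under control of Cd4 sequences. The groups were WT (wild-type cd4-cre+, n = 3), E2AKO (E2Aflox/flox Cd4-cre+, n = 2), HEBKO (HEBflox/flox cd4-cre+, n = 2) and DKO (E2Aflox/flox HEBflox/flox cd4-cre+, n = 3). The labels call the arrays of a group biological replicates. All comparisons against WT used the same 3 WT arrays.

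D cyclins bind CDK4 or CDK6, and the active kinase phosphorylates the retinoblastoma protein, which then releases E2F factors to switch on genes of DNA synthesis. INK4 inhibitors, such as the products of Cdkn2c (p18) and Cdkn2d (p19), bind CDK4 and CDK6 themselves, whereas p27, the product of Cdkn1b, binds whole cyclin and kinase complexes. In the thymus cyclin D3 drives the burst of division that follows pre-T cell receptor signalling, and most DP cells then rest. E proteins bind E-boxes (CANNTG) and are known to restrain proliferation of developing thymocytes.

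The promoters of the kinase genes and of Ccnd3 are shown first because these 3 genes carried the clearest differences. The sequences are the 250 bases before the RefSeq start (build GRCm38.p6, given 5′ to 3′ on the strand of the gene), with every E-box in capitals.
Cdk4, chr10:127063285-127063534, plus strand: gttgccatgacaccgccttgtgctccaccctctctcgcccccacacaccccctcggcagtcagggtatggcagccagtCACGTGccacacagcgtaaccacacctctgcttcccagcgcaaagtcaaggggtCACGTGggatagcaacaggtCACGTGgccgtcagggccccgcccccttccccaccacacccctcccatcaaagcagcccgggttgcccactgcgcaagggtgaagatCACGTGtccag
Cdk6, chr5:3343643-3343892, plus strand: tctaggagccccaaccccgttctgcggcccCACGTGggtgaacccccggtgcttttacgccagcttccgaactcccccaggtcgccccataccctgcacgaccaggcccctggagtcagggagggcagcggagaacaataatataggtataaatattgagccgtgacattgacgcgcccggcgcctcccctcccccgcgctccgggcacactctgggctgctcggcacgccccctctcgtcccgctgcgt
Ccnd3, chr17:47504801-47505050, plus strand, first of 2 listed starts: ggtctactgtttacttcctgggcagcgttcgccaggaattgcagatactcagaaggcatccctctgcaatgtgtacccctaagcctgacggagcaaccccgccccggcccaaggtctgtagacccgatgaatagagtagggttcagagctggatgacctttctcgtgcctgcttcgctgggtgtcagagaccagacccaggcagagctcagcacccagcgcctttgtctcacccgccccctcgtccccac
RefSeq windows of 300 bases, which add 50 bases after the start, were at hand for 7 of the 10 genes listed. The Cdk4 window held 4 E-boxes, at 172, 118, 98 and 11 bases before the start, and each had the core CACGTG. The Cdk6 window held 1 CACGTG, 220 bases before the start, and the window at the other listed start of Cdkn2c held 1, 34 bases after it. Of 32851 windows of this length, 72.3% held a CANNTG, 7.2% a CACGTG, and 8 windows, or 0.0244%, held at least 4 CACGTG. The cut of 4 is the count of the Cdk4 window itself, so this last share is a description and carries no test. The cores CAGCTG (16.3% of windows) and CACCTG with its reverse complement CAGGTG (20.2%) were searched as well. Neither was present in the windows of Cdk4, Cdk6, Ccnd3, Cdkn1b, Cdkn2c or Cdkn2d. No CANNTG was present in either window of Ccnd3, so its line has no capitals, nor in those of Cdkn1b, Cdkn2d and the first start of Cdkn2c. CANNTG includes each of these cores. Cdkn1a had a CAGCTG in 1 of its windows and a CAGGTG and a CAACTG in the other. TTTNNCGC, a form of the E2F motif searched on both strands and present in 5.2% of windows, occurred once in the window of Cdk6. A match describes the letters of the window and no binding was measured.

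The 10 arrays had median intensities of 92.6 to 98.6, and the correlation of log2 values across genes between arrays of 1 genotype was 0.980 to 0.989 (genes are not independent replicates). Tcf3, which encodes E2A, differed from WT by -0.66 ± 0.11 in DKO (log2 difference and SE), and Tcf12, which encodes HEB, by -1.13 ± 0.10, both past the test (limma adjusted p = 0.00256 and 3.07e-05). In E2AKO Tcf3 stood at -0.54 ± 0.13 and in HEBKO Tcf12 at -0.52 ± 0.12, neither past it (limma adjusted p = 0.998 and 0.0657). The DP markers Cd4, Cd8a, Cd8b1, Rag1 and Rag2 were above the 40th percentile in every array of every genotype. The summed intensity of the 8 DP markers on the array was 42310 to 43990 in WT. It was 41480 to 42580 for E2AKO arrays, 29410 to 38990 for HEBKO and 21170 to 24270 for DKO, where 6 of the 8 fell. Of all genes tested, 5.41% fell and 8.18% rose in DKO against WT, and 0.632% fell in HEBKO. All 8 markers of mature single-positive T cells on the array rose in DKO, with a summed intensity of 8833 to 11350 against 3310 to 3913 in WT, and HEBKO lay at 4456 to 4950. Within HEBKO the median of the mature markers from the WT mean was 0.93 in HEBKO 1 and -0.02 in HEBKO 2. The cells of each genotype were sorted as DP cells to a purity above 98% and measured in bulk. In bulk samples fewer cells of a type and less RNA per cell cannot be told apart. The part of the mature markers in the results below was not tested. Of 5 B cell markers on the array, Ms4a1, Cd79a and Ebf1 lay below the 40th percentile in every array, while Cd79b, at 8.02 in WT, and Pax5, at 6.28, lay above it in all WT arrays. In DKO Cd79b fell by 0.59 ± 0.13. Of 8 myeloid and dendritic markers, 6 lay below the 40th percentile in every array, among them Lyz2 and Csf1r, and Itgam and Flt3l, at 7.0 and 7.29 in WT, lay above it there. In DKO Itgam fell by 0.67 ± 0.15 and Flt3l rose by 1.17 ± 0.16. Of 6 early progenitor markers tested, 1 rose in DKO, the interleukin receptor gene Il2ra, and the summed intensity of the 8 on the array was 864.6 to 1088 there against 678.7 to 755.5 in WT. The summed intensity of 8 thymic epithelial markers was 998.1 to 1024 in WT, 817.1 to 840 for E2AKO arrays, 718.5 to 786.8 for HEBKO and 745.8 to 753.5 for DKO. Krt5 and Psmb11 of this list lay below the 40th percentile in every array. Of 6 epithelial markers tested, Cldn4 fell in HEBKO, to 49.6% of WT, and Cldn4, to 41.9%, and Epcam, to 69.0%, fell in DKO. The erythroid list had 1 gene tested, Alas2, at -0.23 ± 0.12 in HEBKO and -0.16 ± 0.11 in DKO, neither past the test. The part of these markers in the results was not tested either.

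In DKO against WT Ccnd3 was lower and Cdk4 and Cdk6 were higher, while the other 6 measured genes did not pass the test. None of the 9 genes passed it in DKO against HEBKO. In limma, with Benjamini-Hochberg adjusted p for the 13138 genes and a threshold of 0.05, 3 of the 9 genes were called in DKO against WT, and 13.6% of all genes were. By direction, 2 of 9 rose, where 8.18% of all genes did, and 1 fell, where 5.41% did. The median difference of the 9 genes was -0.07, and that of all genes tested -0.01. The DKO and WT arrays did not overlap for 5 of the 9 genes, and for 30.0% of all genes. An unadjusted p under 0.05 was found for 5 of the 9 genes and for 25.7% of all genes.

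**Figure D1:**
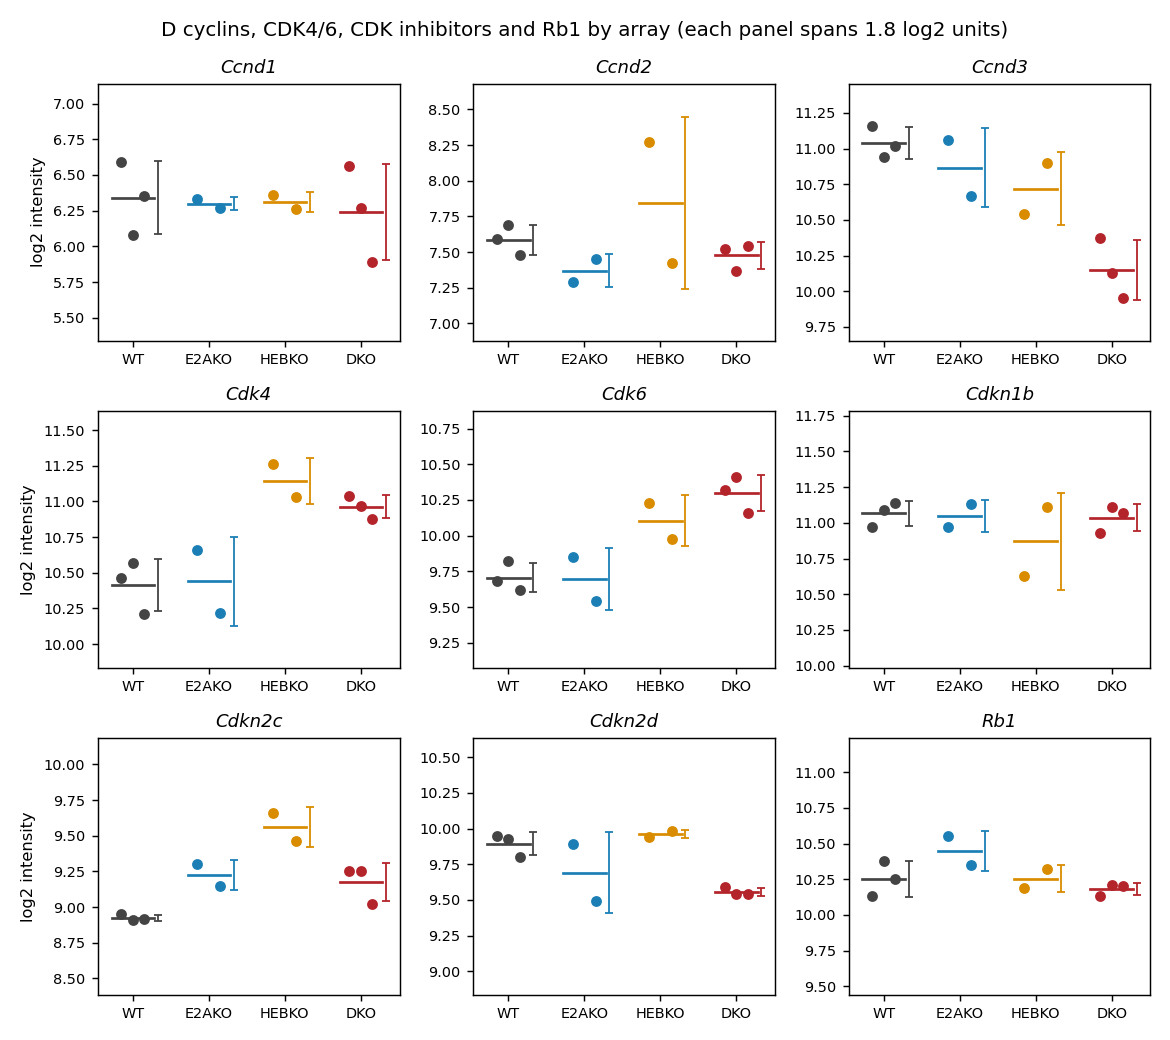
Log2 intensity of the 9 measured genes in each array, by genotype. Points are arrays, lines are group means and bars beside them are SDs. Ccnd3 in the 3 DKO arrays lay at 9.95 to 10.37, below all other arrays, and Cdk4 in HEBKO and DKO lay at 10.88 or above, higher than every WT and E2AKO array.

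Among the D cyclins, Ccnd3 showed the largest change. Its log2 intensity was 11.16, 10.94 and 11.02 in WT 1 to 3. E2AKO 1 and 2 read 11.06 and 10.67, HEBKO 1 and 2 read 10.54 and 10.90, and DKO 1 to 3 read 10.37, 10.13 and 9.95. Every DKO array lay below every array of the other genotypes, and both HEBKO arrays lay below the WT arrays. Ccnd3 fell by 0.89 ± 0.14 in DKO against WT (SE; adjusted p = 0.00159), to 54.0% of the WT level, with group means of 11.04 ± 0.11 (SD, n = 3) in WT and 10.15 ± 0.21 (SD, n = 3) in DKO. Ccnd3 also fell in DKO against E2AKO (-0.71 ± 0.16, adjusted p = 0.0156). Against HEBKO the difference was -0.57 ± 0.16 and missed the threshold (adjusted p = 0.083, 95% interval -0.92 to -0.22). Ccnd3 stood at -0.18 ± 0.16 in E2AKO and -0.32 ± 0.16 in HEBKO against WT, neither past the test (adjusted p = 0.998 and 0.345). The call against WT was kept in each of the 19 alternatives run for it, with values from -1.0 to -0.79. The call against E2AKO was lost without E2AKO 1 or DKO 3, with values from -0.90 to -0.52 and adjusted p up to 0.174 over its alternatives.

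The other D cyclin genes did not pass the test in any comparison. Ccnd2, another D cyclin of lymphocytes, was 7.59, 7.69 and 7.48 in WT 1 to 3. The E2AKO arrays read 7.29 and 7.45, the HEBKO arrays 8.27 and 7.42 and the DKO arrays 7.52, 7.37 and 7.54. HEBKO 1 stood above every other array, whereas HEBKO 2 lay below all WT arrays. The difference from WT was 0.26 ± 0.19 in HEBKO (95% interval -0.16 to 0.68) and -0.11 ± 0.17 in DKO (-0.49 to 0.27). Without HEBKO 2, which leaves HEBKO 1 as the lone array, Ccnd2 was called in DKO against HEBKO (-0.80, adjusted p = 0.0183) and in HEBKO against E2AKO (0.90, adjusted p = 0.033), where the lone array is assumed to vary like the other groups. Ccnd1 lay low on every array, from 6.08 to 6.59 in WT and from 5.89 to 6.56 in DKO, and DKO 3 was below the 40th percentile of its array. Its difference from WT in DKO was -0.10 ± 0.16, with a 95% interval from -0.46 to 0.26 and groups that overlapped.

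Both kinase genes were higher in DKO than in WT. Cdk4 was 10.46, 10.57 and 10.21 in WT 1 to 3. E2AKO 1 and 2 read 10.66 and 10.22, the HEBKO arrays 11.26 and 11.03 and the DKO arrays 11.04, 10.97 and 10.88. The HEBKO and DKO arrays stood together above all WT and E2AKO arrays. Cdk4 rose by 0.55 ± 0.13 in DKO (1.46-fold, adjusted p = 0.0183), a call lost without WT 3, DKO 1 or DKO 2 (adjusted p up to 0.0906). In HEBKO it rose by 0.73 ± 0.15 (1.66-fold, adjusted p = 0.0483), just inside the threshold. The HEBKO call was lost in 12 of 19 alternatives, with values from 0.61 to 0.86 and adjusted p up to 0.305, among them those without WT 1, WT 3, HEBKO 1, HEBKO 2 or any 1 DKO array. Cdk4 in DKO differed from HEBKO by -0.18 ± 0.15 (95% interval -0.51 to 0.15), which did not pass. The difference of DKO from E2AKO was 0.52 ± 0.15 (adjusted p = 0.0508), and it passed in 7 of 19 alternatives, among them those without WT 2 or E2AKO 1.

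Cdk6 was 9.68, 9.82 and 9.62 in WT 1 to 3. In E2AKO it read 9.85 and 9.54, the HEBKO arrays 10.23 and 9.98 and the DKO arrays 10.32, 10.41 and 10.16. The DKO arrays lay above all WT and E2AKO arrays, and 1 HEBKO array reached into their range. Cdk6 rose by 0.59 ± 0.12 in DKO against WT (1.5-fold, adjusted p = 0.00581), a call kept in the 19 alternatives with values from 0.53 to 0.68. It also rose in DKO against E2AKO (0.60 ± 0.13, adjusted p = 0.0133), which was lost without E2AKO 2 or DKO 2 (adjusted p up to 0.146). In HEBKO its difference from WT was 0.40 ± 0.13 (adjusted p = 0.157), and DKO differed from HEBKO by 0.19 ± 0.13 (95% interval -0.09 to 0.48). In E2AKO the differences from WT were 0.03 ± 0.15 for Cdk4 and -0.01 ± 0.13 for Cdk6, with 95% intervals of -0.30 to 0.35 and -0.30 to 0.27. Cdk4 and Cdk6 varied together over the 10 arrays (r = 0.89), and Cdk6 ran against Ccnd3 (r = -0.75). These arrays share the 4 genotypes, so the correlations largely describe group means and carry no test.

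**Figure D2:**
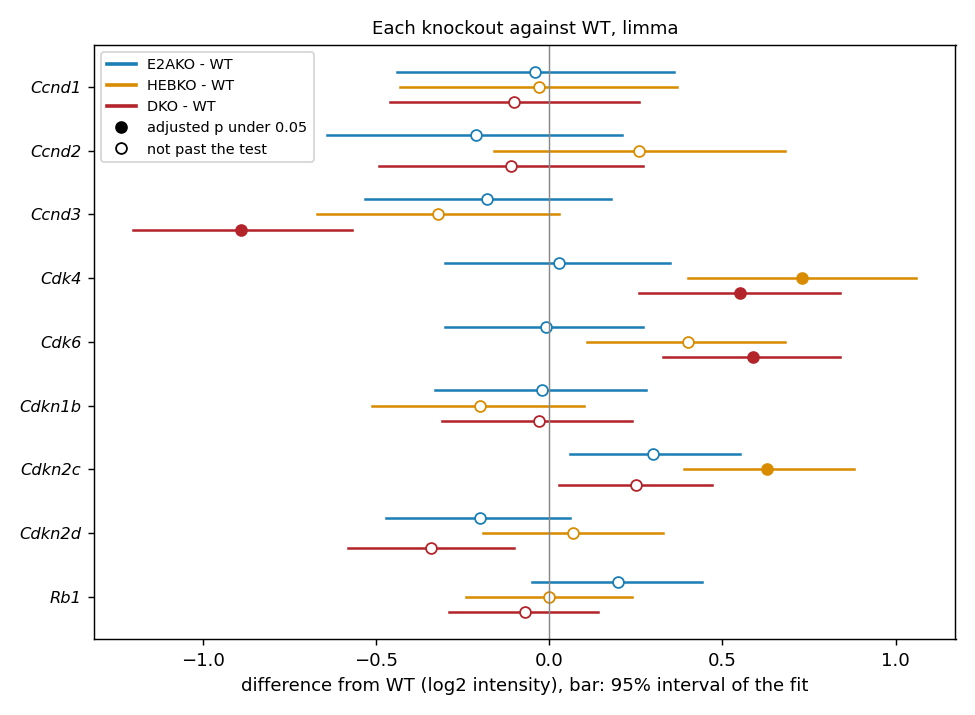
Difference of each knockout from WT in log2 intensity for the 9 genes, with the 95% interval of the limma fit. Filled points passed the test over all genes. The filled points are Ccnd3, Cdk4 and Cdk6 in DKO and Cdk4 and Cdkn2c in HEBKO, and none is filled for E2AKO.

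The INK4 genes differed from each other. Cdkn2c was 8.95, 8.91 and 8.92 in WT 1 to 3. The E2AKO arrays read 9.30 and 9.15, the HEBKO arrays 9.66 and 9.46 and the DKO arrays 9.25, 9.25 and 9.02. Each knockout array stood above the WT arrays, and the HEBKO arrays stood above all others. Cdkn2c rose by 0.63 ± 0.11 in HEBKO (1.55-fold, adjusted p = 0.0293), a call lost in 6 alternatives (values from 0.53 to 0.74, adjusted p up to 0.25), among them those without WT 1, WT 3, HEBKO 1 or DKO 2. Its difference from WT was 0.30 ± 0.11 in E2AKO (adjusted p = 0.998) and 0.25 ± 0.10 in DKO (adjusted p = 0.136). The interaction, which is DKO minus E2AKO minus HEBKO plus WT and measures the departure of the double loss from the sum of the single losses, was -0.68 ± 0.16 for Cdkn2c. It did not pass (adjusted p = 0.104, from 0.0782 to 0.444 over the alternatives).

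Cdkn2d was 9.95, 9.93 and 9.80 in WT 1 to 3. E2AKO 1 and 2 read 9.89 and 9.49, the HEBKO arrays 9.94 and 9.98 and the DKO arrays 9.59, 9.54 and 9.54. The DKO arrays lay below all WT and HEBKO arrays and overlapped E2AKO. The difference of DKO from WT was -0.34 ± 0.11 and missed the threshold (adjusted p = 0.0589), which it passed in 8 of 19 alternatives, among them those without E2AKO 1 or E2AKO 2, with values from -0.39 to -0.29 over all 19. Against HEBKO it was -0.41 ± 0.12 (adjusted p = 0.0961), which passed without E2AKO 1 or E2AKO 2.

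Cdkn1b gave different answers in its 2 probe sets. In the probe set with the higher mean it was 10.97, 11.09 and 11.14 in WT 1 to 3. In E2AKO it read 10.97 and 11.13, the HEBKO arrays 10.63 and 11.11 and the DKO arrays 10.93, 11.11 and 11.07. HEBKO 1 was the lowest array and the other genotypes overlapped, with a DKO difference from WT of -0.03 ± 0.12 (95% interval -0.31 to 0.24). In the other probe set it was 9.02, 9.58 and 9.16 in WT 1 to 3. The E2AKO arrays read 9.82 and 9.80, both HEBKO arrays 9.47 and 9.63 and the DKO arrays 9.62, 9.85 and 9.73. There the E2AKO and DKO arrays all lay above the WT arrays, and DKO differed from WT by 0.48 ± 0.14 (adjusted p = 0.0368 when this probe set took the place of the other). The E2AKO difference was 0.56 ± 0.15 (adjusted p = 0.998, 95% interval 0.23 to 0.89). The correlation of both probe sets over the 10 arrays was 0.15. Which part of the transcript each probe set reads was not analysed here, so no direction is given for Cdkn1b.

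**Figure D3:**
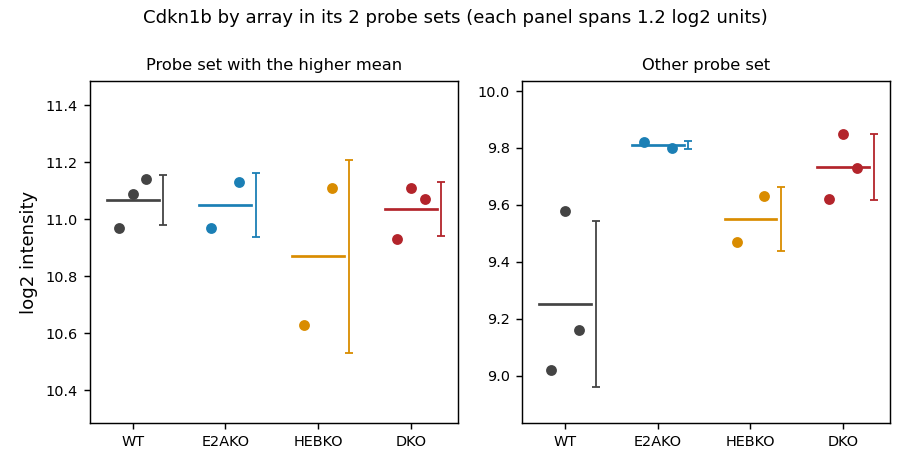
Log2 intensity of Cdkn1b in each array in its 2 probe sets, with group means as lines and SDs as bars. WT and DKO overlap in the left panel, whereas the 3 DKO arrays on the right, at 9.62 to 9.85, lie above the 3 WT arrays, at 9.02 to 9.58.

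Rb1, the pocket protein that these kinases phosphorylate, was 10.13, 10.38 and 10.25 in WT 1 to 3. E2AKO 1 and 2 read 10.55 and 10.35, the HEBKO arrays 10.19 and 10.32 and the DKO arrays 10.13, 10.21 and 10.20. WT overlapped each knockout. Its difference from WT was -0.07 ± 0.10 in DKO (95% interval -0.29 to 0.14), 0.00 ± 0.11 in HEBKO and 0.20 ± 0.11 in E2AKO. The E2AKO arrays lay above all HEBKO and DKO arrays, and DKO differed from E2AKO by -0.27 ± 0.11, which did not pass (adjusted p = 0.173).

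The single losses and the differences between knockouts gave few calls among these genes. In HEBKO against WT 2 of 9 genes rose, where 0.274% of all genes rose and 0.906% were called in either direction, and the groups did not overlap for 4 of the 9 genes and 30.5% of all genes. Of the 9, 3 had an unadjusted p under 0.05, as had 16.7% of all genes. The 2 calls, Cdk4 and Cdkn2c, were lost in 12 and 6 of 19 alternatives, and the 9 genes were chosen with earlier results of these data known. In E2AKO against WT limma called 0 of 9 genes, as it called 0% of all genes, while Cdkn2c alone of the 9 had an unadjusted p under 0.05, as had 3.18% of all genes. Its arrays and those of Ccnd2 did not overlap WT, which held for 16.4% of all genes. DKO against E2AKO gave 2 calls of 9 (9.07% of all genes), with 1 gene higher (5.10% of all genes) and 1 lower (3.97%). Its groups did not overlap for 4 of the 9 genes and 40.2% of all genes. An unadjusted p under 0.05 was found there for 4 of the 9 genes and 21.8% of all genes. DKO against HEBKO gave 0 calls of 9 in limma, against 3.63% of all genes (2.15% higher and 1.48% lower), while 3 of the 9 had an unadjusted p under 0.05, as had 15.2% of all genes. Its groups did not overlap for 3 of the 9 genes and 31.8% of all genes. HEBKO against E2AKO gave 0 calls of 9 in limma, against 0.0381% of all genes (0.00761% higher and 0.0304% lower), while 4 of the 9 had an unadjusted p under 0.05, as had 15.4% of all genes. Its groups did not overlap for 5 of the 9 genes and 45.6% of all genes. The interaction gave 0 calls of 9, against 0.632% of all genes, while Cdkn2c alone of the 9 had an unadjusted p under 0.05, as had 8.72% of all genes. On simulated data with 200 changed genes, 70% of 1.5-fold changes and 99% of 2-fold changes were recovered for DKO against WT. The shares were 60% and 96% for HEBKO and 66% and 99% for E2AKO against WT. False calls numbered 11, 7 and 7. The measured data gave 1786, 119 and 0 calls in these comparisons, so the simulated setting differs and the shares need not hold there. Genes with a larger spread can be missed at such fold sizes. Cks2, named below, was not called in HEBKO at 1.02 ± 0.28 (limma adjusted p = 0.116), so a gene not called is not shown to be unchanged.

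Downstream of the kinases, pocket protein and E2F genes moved in both directions in DKO. Of 12 tested, 1 rose and 3 fell, where 8.18% and 5.41% of all genes did. E2f2, an activating E2F that restrains T cell proliferation, fell by 1.04 ± 0.17 (adjusted p = 0.00173), from 9.71 to 9.82 in WT to 8.38 to 8.94 in DKO. E2f4, a repressive E2F, fell by 0.87 ± 0.20 (adjusted p = 0.0139, lost without WT 1, DKO 2 or DKO 3), and its pocket protein partner Rbl2, which encodes p130, fell by 0.41 ± 0.10 (adjusted p = 0.0148, lost without WT 3 or DKO 2). E2f6, a repressor that needs no pocket protein, rose by 0.83 ± 0.16 (adjusted p = 0.00546). The WT and DKO arrays did not overlap for these 4 genes. In HEBKO limma called 0 of the 12, where it called 0.906% of all genes, and 5 had an unadjusted p under 0.05. An unadjusted p under 0.05 was found for 16.7% of all genes tested in HEBKO against WT. The share was 25.7% in DKO against WT and 15.2% in DKO against HEBKO.

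Genes that E2F factors drive were higher in HEBKO in their estimates, yet none passed the test. Of 23 S-phase genes 22 had an estimate above 0 in HEBKO against WT, with a median of 0.56 where all genes tested had 0.00, and limma called 0 of them, while 18 of 23 had an unadjusted p under 0.05, where 16.7% of all genes had. Measured from the mean of WT, their median was 0.58 and 0.63 for the HEBKO arrays and 0.13, 0.09 and -0.30 for the DKO arrays. It was 0.20 and -0.34 for E2AKO and -0.13, 0.26 and -0.11 for WT, so both HEBKO arrays lay above the other 8. The S-phase genes share the same arrays and are not independent replicates, so the counts over them carry no test. In DKO the list median was -0.02, and 1 of 23 fell, where 5.41% of all genes did. It was Gins2 of the replicative helicase (-0.51 ± 0.13, adjusted p = 0.0203, lost without WT 1, WT 2, DKO 2 or DKO 3). Gins1 at 0.41 ± 0.22, Dut at 0.41 ± 0.19 and the primase gene Prim1 at 0.33 ± 0.18 did not pass there. In HEBKO Gins1, Dut and Prim1 stood at 1.11 ± 0.25, 0.64 ± 0.21 and 0.82 ± 0.20 (adjusted p = 0.0689, 0.155 and 0.0909). Without WT 2, the WT array with the highest S-phase median, these 3 passed in HEBKO, and Gins1 also did without E2AKO 1 or E2AKO 2.

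The 20 mitosis genes had a median of 0.37 in HEBKO and -0.25 in DKO, with all 20 estimates above 0 in HEBKO and 0 of 20 above 0 in DKO. Limma called 0 of them in either, where it called 0.906% and 13.6% of all genes. An unadjusted p under 0.05 was found for 4 and 1 of them, and for 16.7% and 25.7% of all genes. Mki67, a marker of cycling cells, was -0.42 ± 0.16 in DKO. Cenpf at -0.42 ± 0.22, Bub1b at -0.36 ± 0.20 and Aurka at -0.35 ± 0.21 stood close to it. The mitosis median per array was -0.17, 0.05 and -0.66 in DKO and -0.16, 0.26 and -0.08 in WT, so DKO 1 lay at the level of the lowest WT array and DKO 3 below it. Against HEBKO the DKO median was -0.64, and limma called 0 of 20, with 19 at an unadjusted p under 0.05, where 15.2% of all genes had. The mitosis genes share these arrays as well, and the counts over them carry no test. The 9 other cyclin genes tested had a median of 0.33 in HEBKO and -0.02 in DKO, and limma called 0 in either. An unadjusted p under 0.05 was found for 16.7% and 25.7% of all genes, and for 3 and 2 of these cyclin genes. Among them the A and B cyclin genes Ccna2 and Ccnb2 were -0.45 ± 0.20 and -0.33 ± 0.19 in DKO, Ccng1, a p53 target, was 0.36 ± 0.11 (adjusted p = 0.0589, past the test in 9 of 19 alternatives) and Ccnc was 0.33 ± 0.18. In both HEBKO arrays the S-phase and mitosis medians lay above 0, and Cdk4 and Cdkn2c lay above WT. The mitosis medians were 0.25 in HEBKO 1, near WT 2 at 0.26, and 0.5 in HEBKO 2. Both medians were higher in HEBKO 2, whereas Cdk4 and Cdkn2c were higher in HEBKO 1. The part of the S-phase and mitosis genes in the HEBKO differences was not tested. In DKO Cdk4 and Cdk6 were higher in all 3 arrays, and the S-phase medians of these arrays lay on either side of 0. The part of the S-phase and mitosis genes in the DKO differences was not tested either.

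**Figure D4:**
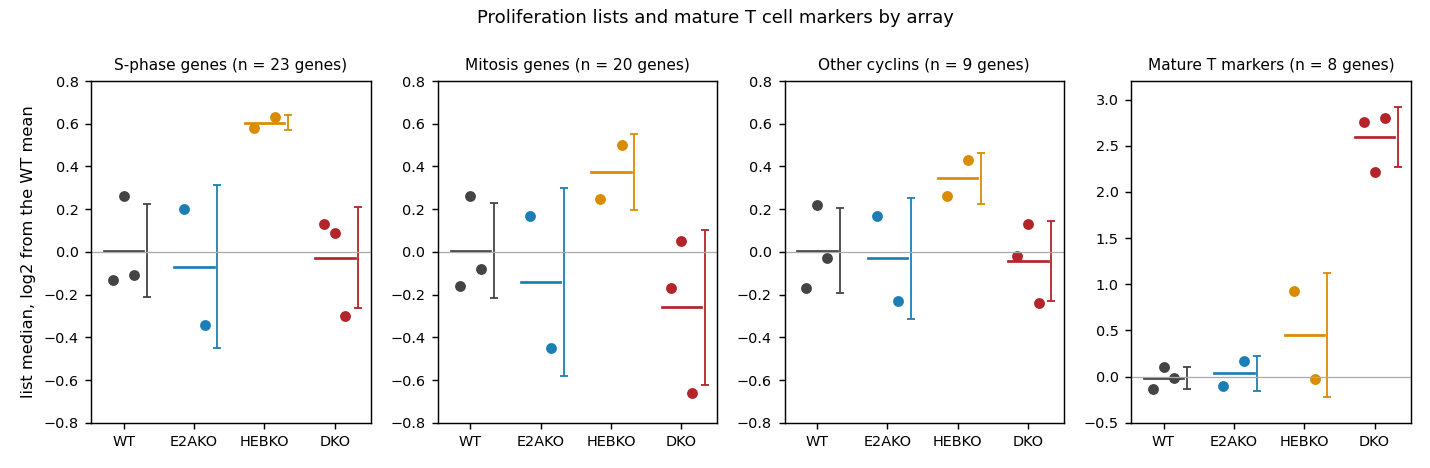
Median log2 difference from the WT mean over the S-phase, mitosis, other cyclin and mature T cell marker lists in each array, with lines for group means and bars for SDs. S-phase medians of HEBKO, 0.58 and 0.63, lie above the other arrays, and mature T cell markers reach 2.22 to 2.80 in DKO on an axis of wider range.

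No call was made among the other kinases and inhibitors. Limma called 0 of 6 other kinase genes in DKO and in HEBKO, with 1 at an unadjusted p under 0.05 in each. Of all genes, limma called 13.6% in DKO and 0.906% in HEBKO, and 25.7% and 16.7% had an unadjusted p under 0.05. In DKO Cdk7, the CDK-activating kinase, was 0.40 ± 0.18, Cdk5 was 0.25 ± 0.12, Cdk9, which acts in transcription, was 0.15 ± 0.09 and the mitotic kinase gene Cdk1 was 0.10 ± 0.24. Of the 4 other inhibitor genes limma called 0 in DKO and in HEBKO, and 0 had an unadjusted p under 0.05. Cdkn3 was -0.26 ± 0.16 in DKO, Cdkn1c (p57) -0.20 ± 0.13, Cdkn2b (p15) -0.08 ± 0.12 and Cdkn2a (p16 and p19ARF) -0.03 ± 0.09. Cdkn2a lay between 6.41 and 6.70 in all 10 arrays.

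Among 13 genes of D cyclin and inhibitor turnover, 3 rose in DKO and 0 fell, where 8.18% and 5.41% of all genes did. Skp1, a core subunit of the ubiquitin ligase that degrades p27, rose by 0.71 ± 0.15 (adjusted p = 0.00988, lost without WT 3) and stood at 0.74 ± 0.17 in HEBKO (adjusted p = 0.0733), which passed without WT 2, E2AKO 1 or E2AKO 2. Usp28, a deubiquitinase that stabilises Myc, rose by 0.39 ± 0.11 (adjusted p = 0.0377), a call lost without any 1 of WT 1, WT 3 or the DKO arrays. Fbxo31, a ligase subunit that targets cyclin D1, rose by 0.32 ± 0.10 (adjusted p = 0.0464) and was named after its value was seen. Cks2 and Cks1b, whose products bind CDKs and of which Cks1b also serves p27 degradation, were 0.51 ± 0.25 and 0.49 ± 0.23 in DKO and 1.02 ± 0.28 and 0.87 ± 0.26 in HEBKO, none past the test, although Cks2 passed in HEBKO without WT 2. In HEBKO limma called 0 of the 13, where it called 0.906% of all genes. Of the 13, 7 had an unadjusted p under 0.05, where 16.7% of all genes had.

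Of 15 upstream regulators tested in DKO, 3 rose and 4 fell, where 13.6% of all genes were called. Foxo1, a factor that activates Cdkn1b in resting lymphocytes, rose by 1.47 ± 0.19 (adjusted p = 0.000297), from 8.19 to 8.72 in WT to 9.77 to 10.25 in DKO. Myc, which binds CACGTG and activates Cdk4, rose by 1.25 ± 0.20 (adjusted p = 0.00136), from 7.26 to 7.97 in WT to 8.52 to 9.10 in DKO. In HEBKO Myc was 8.17 and 8.47, both above the WT arrays, with a difference of 0.68 ± 0.22 that did not pass (adjusted p = 0.153). Myb, a factor of DP survival and proliferation, fell by 1.4 ± 0.11 (adjusted p = 1.03e-05) and Bcl6, a transcriptional repressor, by 1.33 ± 0.17 (adjusted p = 0.000285). The calls of Foxo1, Myc, Myb and Bcl6 were kept in each of their 19 alternatives. The other calls, named after their values were seen, were the quiescence factor Klf2 at 0.78 ± 0.17, the repressor Gfi1 at -0.94 ± 0.10 and the receptor Notch3 at -0.45 ± 0.10 (adjusted p = 0.0101, 7.91e-05 and 0.0126), and Klf2 is also among the mature markers. In HEBKO limma called 0 of the 15, where it called 0.906% of all genes. Of the 15, 4 had an unadjusted p under 0.05, where 16.7% of all genes had.

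Called targets of p53, the factor best known for inducing Cdkn1a, moved in both directions in DKO, and most estimates lay below 0. Of 13 tested, 1 rose and 3 fell, where 8.18% and 5.41% of all genes did. The list median was -0.19, where all genes tested had -0.01, and 2 of 13 estimates lay above 0. Sesn1 rose by 0.69 ± 0.09 (adjusted p = 0.000481), whereas the antiproliferative gene Btg2 fell by 0.91 ± 0.12 (adjusted p = 0.000346). Sesn2 fell by 0.45 ± 0.12 (adjusted p = 0.0322, lost without WT 1, WT 3 or any 1 DKO array) and Trp53inp1, named after its value was seen, by 0.43 ± 0.09 (adjusted p = 0.00859). The death receptor gene Fas was -0.55 ± 0.17 (adjusted p = 0.0556, past the test in 6 of 19 alternatives). In HEBKO limma called 0 of the 13, where it called 0.906% of all genes. Of the 13, 1 had an unadjusted p under 0.05, where 16.7% of all genes had.

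**Figure D5:**
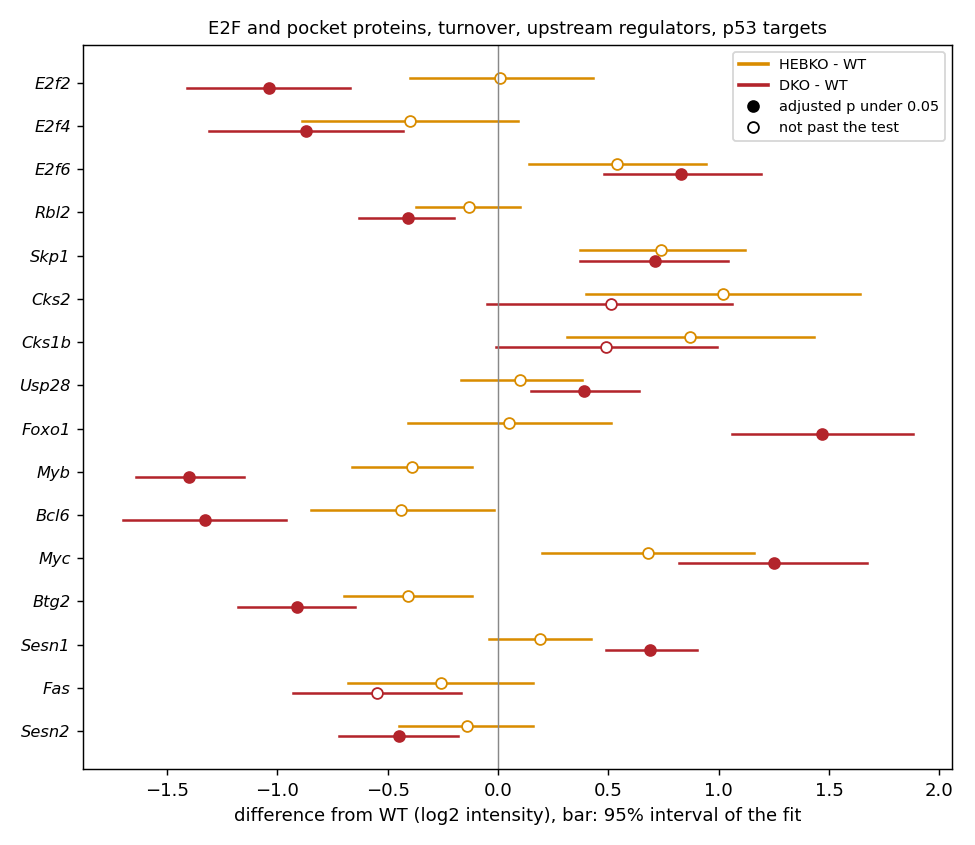
Difference from WT in log2 intensity of the 4 genes with the largest DKO difference in each of 4 lists, with the 95% interval of the limma fit; filled points passed the test. Foxo1 at 1.47 and Myc at 1.25 are the largest rises and Myb at -1.4 the largest fall in DKO, and none is filled for HEBKO.

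The genes whose profile over the 10 arrays was closest to that of Cdk6, the called gene of the set with the largest rise in DKO against WT, were Eef1a1 and Dad1 (Pearson r = 0.982 each), Rpl10 and Prps1 (0.977 each) and Lmo4 (0.975). Their DKO differences from WT were 0.27, 0.53, 0.88, 0.74 and 1.48. Closest to Ccnd3, the called gene with the largest fall in that comparison, were Reep4 (0.974), Ubl5 (0.965), Ezr and Fkbp1a (0.96 each) and Ramp1 (0.955), with DKO differences of -0.52, -0.81, -0.54, -0.62 and -0.73. These correlations describe arrays that share genotypes and have no test.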

How the data were processed

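The authors deposited intensity values on a linear scale, 1 column per sample, and processed them with RMA, per the submitters' processing notes, which give no version. Tests used log2 of these values, without a pseudocount. Of 34760 probe sets, 21640 carried 1 gene symbol, 1321 several and 11799 none, and the latter kinds were left out. A gene was tested if its probe set with the highest mean lay at or above the 40th percentile in 2 arrays or more. The model gave each genotype its own mean, used the 10 arrays together and was run in limma 3.58.1 (R 4.3.3) (6 residual and 5.68 prior degrees of freedom), with statmod 1.5.0 for the robust alternative. Tests are two-sided, p was Benjamini-Hochberg adjusted for the 13138 genes tested, and called means an adjusted p under 0.05. The steps were tested on simulated data. The number of arrays limits the precision. Named genes are all listed genes, up to 4 tested genes of each pathway list with the largest DKO difference, and the 5 closest profiles (passing over Rik, Gm and LOC names). The members and lists were chosen with earlier results of these data known. Promoters are from RefSeq (GRCm38.p6). Alternatives were other filters, normalisations, probe set summaries, moderation, array weights, a fit of the compared groups alone, a block for the replicate number and each array left out. The other probe set of Cdkn1b was added after the data were seen.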

Additional observations from a re-analysis of the deposited data

How the results depend on the processing

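Over 7 contrasts and up to 20 alternatives, the differences of the 9 genes kept their side of the threshold in 1142 cases, lost a call in 25, gained one in 20 and turned in 1, which was Cdkn1b in DKO against WT (0.48 in its other probe set). The number of the 9 genes called in HEBKO against WT, 2, was 1 with no filter, with arrays shifted to 1 median and with the replicate block, and 0 with renewed quantile normalisation and with only the groups compared. In DKO against WT it was 3, and 5 with array weights, which added Cdkn2c and Cdkn2d. It was 4, with Cdkn2d added, under the 60th percentile filter, renewed quantile normalisation and trend and robust moderation. The fit of only the groups compared and the replicate block gave the same 4 genes. The other probe set of Cdkn1b also gave 4, with Cdkn1b added. Leaving out 1 array gave 0 to 2 in HEBKO against WT, 2 to 4 in DKO against WT, 1 to 3 in DKO against E2AKO, and 0 to 1 in DKO against HEBKO and in HEBKO against E2AKO. The cause was not tested. Over all genes, 119 calls in HEBKO against WT became 73 with arrays shifted to 1 median, 515 with array weights and 36 with only the groups compared, and 1786 in DKO against WT became 3655 with array weights, whose fit stopped before full convergence. Leaving out 1 array gave 2 (without HEBKO 1) to 496 (without WT 2) calls in HEBKO against WT, and 995 (without WT 3) to 1917 (without WT 2) in DKO against WT. It gave 585 (without E2AKO 1) to 1293 in DKO against E2AKO (1191 with all arrays), 194 (without HEBKO 2) to 499 in DKO against HEBKO (477), 0 (without E2AKO 2) to 55 (without HEBKO 2) in HEBKO against E2AKO, and 27 (without E2AKO 1) to 122 (without HEBKO 1) for the interaction. HEBKO against E2AKO went from 5 to 3 (1 median), 22 (trend and robust), 3 (only the groups compared) and 86 (replicate block), the interaction from 83 to 43 and E2AKO against WT from 0 to 1 under the block. Same-numbered arrays correlated at -0.29 to 0.48 in their deviations from group means, with 10 of 13 pairs above 0.1, among them HEBKO and DKO at 0.48 and 0.45 and WT 1 and DKO 1 at 0.40. Not every pair passed 0.1, and 5 of 10 arrays correlated best with an array of their own number. Arrays of different number correlated at -0.48 to 0.41. In groups of 2 the deviations mirror each other, so these pairs are not independent and do not settle a pairing. The labels only call the arrays biological replicates, and the numbers were not taken as pairs. Ccnd1 lay near the 40th percentile, which limits what can be seen of it.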
